A study of Mus musculus with 34 samples.

Results

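Folr2, Lyve1, Cd163, Mrc1, F13a1, Fcrls, Stab1, Cd93 and Dab2 are 9 genes that mark scavenging, tissue-resident macrophages, and they are described here across the colonic macrophage libraries of all 3 deposited tables. They were chosen by name, as the rows with these symbols in whichever table lists them, and stand among 9851 genes listed in at least 1 table. All 9 are listed in the first and the rescue table. The neutrophil table lists 8 of them, Cd163 not being among its rows. The macrophages were sorted from the colonic lamina propria of C57BL/6 mice as CD45+ CD11b+ CD11c-intermediate CD64+ cells without Ly6c and CD103, and their polyadenylated RNA was sequenced in 34 libraries of 10 groups.

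The first table sets 3 libraries titled IL10R, from mice whose macrophages lack the IL-10 receptor alpha chain per the series title, against 3 titled CXhet. The rescue table holds 4 libraries titled IL10R_abx, from mice given antibiotics in the drinking water, 3 titled IL10R_littermate_abx, also given antibiotics and called littermate_abx below, 4 titled IL10R_P19, read as lacking the p19 subunit of IL-23 as well, 5 titled IL10R, and 2 titled CX. Mice of both tables were 6 to 7 weeks old, and those outside the antibiotic groups are labelled as untreated. The neutrophil table holds bone marrow chimeras at 4 weeks, with 3 libraries titled ko_ly6g, 3 titled ko_igg and 4 titled wt. The treatment label of all 10 chimera libraries names an anti-Ly6g antibody, which the titles do not bear out, and groups were taken from titles. All IL10R, IL10R_P19 and IL10R_abx titles of the rescue table also carry 5C5, which the labels do not explain, and neither the promoter behind any Cre, the littermates' genotype, the meaning of CX nor the host cells left in the chimeras is stated. Whether replicate libraries stem from different animals is not labelled, and p-values therefore measure library-to-library spread only, part or all of which may be technical.

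Macrophages of the gut wall take up debris, proteins and sugars through receptors that recycle between the surface and endosomes. Resident macrophages near vessels and in the submucosa are known for high Lyve1, Folr2, Cd163 and Mrc1, and these genes are known to be low in monocytes that have just entered the tissue. IL-10, read by its receptor on macrophages, is known to restrain the inflammatory programme of newly arrived cells in the colon. Lyve1, Stab1 and Cd93 are also used by endothelial cells.

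The sort was checked against markers. Of 15 macrophage markers 13 were listed in each table, among them Csf1r, Fcgr1, which encodes CD64, and C1qa, and their sum came to 0.598% to 3.36% of all values in a library. All 20 epithelial markers were listed too, with sums of 0.303% to 2.80%. Of 10 lymphatic endothelial markers only Ccl21b was listed, in the first and rescue tables, at no more than 0.00294%, and the listed blood endothelial markers came to 0.0115% to 0.0529%. Reads of the listed genes numbered 1458726 to 2487074 per library in the first table, 747046 to 2775974 in the rescue table and 1028567 to 4525047 in the 8 neutrophil-table libraries whose reads could be recovered. Il10ra, the targeted gene, was 9.26 to 361 in IL10R against 371 to 689 in CXhet libraries, the highest IL10R value being that of the library labelled IL10R 2. Its log2 change there of -2.99 (SE 1.09) was not called (limma adjusted p = 0.138). Il10ra levels in the rescue table were 1.70 to 31.2 in IL10R_abx, IL10R_P19 and IL10R against 138 to 284 in littermate_abx and CX, and in the chimeras 32.2 to 111 in ko_ly6g and ko_igg against 247 to 827 in wt. In sorted bulk samples, fewer cells that express a gene and less RNA per cell cannot be told apart.

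Promoters are shown for Mrc1 and Fcrls, the members called lower, beside Cd93, in IL10R against CXhet, IL10R against CX and both chimera comparisons with wt, and for Cd163, the member with the largest change in littermate_abx against CX. Of the 9 members 7 have at least 1 entry, 10 in all, in the RefSeq promoter table of GRCm38.p6, which runs from 250 bases before to 50 after a start. Lyve1 and Cd93 have no entry. Folr2, F13a1 and Dab2 have more than 1 each, so the counts below are of promoters and not of genes. Capitals mark TTCNNNGAA, a palindrome of the kind bound by STAT factors, and GAGGAA, as bound by ETS factors such as PU.1. They also mark TGCTGA, a part of MAF recognition elements, and TATAAA. Each was searched on both strands, and no marked stretch overlaps another. The Mrc1 promoter lies at chr2:14229164-14229463 (plus strand), that of Fcrls at chr3:87263475-87263774 (minus strand) and that of Cd163 at chr6:124304401-124304700 (plus strand).
Mrc1: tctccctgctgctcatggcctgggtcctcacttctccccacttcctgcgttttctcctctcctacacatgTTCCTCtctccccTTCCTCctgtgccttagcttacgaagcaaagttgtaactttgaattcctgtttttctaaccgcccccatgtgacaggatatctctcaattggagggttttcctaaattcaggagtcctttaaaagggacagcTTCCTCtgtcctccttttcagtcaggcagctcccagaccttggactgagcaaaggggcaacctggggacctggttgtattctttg
Fcrls: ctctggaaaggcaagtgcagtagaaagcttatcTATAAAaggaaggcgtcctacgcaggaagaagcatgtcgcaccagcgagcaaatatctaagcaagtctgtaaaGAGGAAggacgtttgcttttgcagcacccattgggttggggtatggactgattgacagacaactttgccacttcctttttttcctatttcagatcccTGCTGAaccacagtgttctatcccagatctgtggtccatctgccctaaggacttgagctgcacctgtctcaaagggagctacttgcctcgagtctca
Cd163: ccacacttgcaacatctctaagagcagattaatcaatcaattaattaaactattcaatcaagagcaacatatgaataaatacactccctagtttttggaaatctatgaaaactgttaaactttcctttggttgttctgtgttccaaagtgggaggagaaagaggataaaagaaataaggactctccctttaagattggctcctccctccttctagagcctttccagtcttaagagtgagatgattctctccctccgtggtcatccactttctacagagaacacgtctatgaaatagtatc
GAGGAA or its complement TTCCTC was present in 7 of the 10 member promoters (70%), 3 times in that of Mrc1, and in 28.3% of 32851 promoters of the same length. TGCTGA was present in 5 of 10 (50%) against 19.5% of all, TTCNNNGAA in 1 of 10 (10%), a Dab2 promoter, against 8.30%, and TATAAA in 1 of 10, that of Fcrls, against 13.6%. The Cd163 window held none of the 4. These matches describe the letters only.

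All 9 genes were lower in IL10R than in CXhet macrophages of the first table, by 2.86-fold to 33.5-fold, and no IL10R library reached a CXhet library for any of them, a pattern that 15.7% of tested genes showed. Folr2, the folate receptor beta of macrophages, had 70.1, 13 and 32.9 in IL10R libraries against 749, 1095 and 732 in CXhet libraries. Lyve1, a hyaluronan receptor, had 60.8, 7.77 and 55.3 in IL10R against 559, 954 and 546 in CXhet libraries. Cd163, the receptor for haemoglobin bound to haptoglobin, had 55.5, 7.77 and 44.7 in IL10R against 296, 458 and 259 in CXhet libraries. For these 3 receptors every IL10R library lay far under the lowest CXhet library, and the library labelled IL10R 2 was the lowest. Their log2 changes were -4.69 (SE 0.50, limma adjusted p = 0.00126), -4.39 (SE 0.66, adjusted p = 0.00587) and -3.51 (SE 0.61, adjusted p = 0.0105), on the scale log2(value + 1.31), which understates changes of low genes.

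Fcrls, an Fc receptor-like scavenger protein known from mouse microglia, changed most: 59.5, 11.7 and 29.4 in IL10R against 1287, 997 and 706 in CXhet libraries, which is -5.07 in log2 units (SE 0.49, limma adjusted p = 9.64e-04). F13a1, the catalytic subunit of a fibrin-crosslinking transglutaminase, had 74.1, 27.2 and 55.3 in IL10R against 1055, 1416 and 823 in CXhet libraries, a change of -4.44 (SE 0.35, adjusted p = 4.03e-04). The mannose receptor Mrc1 had 380, 109 and 226 in IL10R against 1772, 1594 and 1063 in CXhet libraries, a change of -2.77 (SE 0.42, adjusted p = 0.00589). Again no library of one group reached the other. The scavenger receptor stabilin, Stab1, had a mean of 661 ± 156 over the IL10R libraries and of 1988 ± 830 over the CXhet libraries (SD, n = 3 each), the smallest change of the 9 at -1.51 (SE 0.34, adjusted p = 0.0292). Cd93, a lectin-like receptor of myeloid and endothelial cells, was 92.0 to 595 in IL10R against 1138 to 1660 in CXhet (change -2.26, SE 0.58, adjusted p = 0.0456), and Dab2, a clathrin adaptor, was 313 to 541 against 1350 to 2012 (change -2.01, SE 0.26, adjusted p = 0.00314).

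Of the 6766 genes that passed a filter on low mean values, 4.12% were called lower and 4.57% higher in IL10R. Folr2, Lyve1, Cd163, F13a1 and Fcrls, 5 of the 9 members, had IL10R means under that filter of 53.2. They passed it through the CXhet libraries alone, where they were high. The adjusted p of these 5 given above and the members' count are therefore a description. So is the members' median change of -3.51, against 0.00446 over all tested genes. With no filter, all 9 were called lower, where 4.29% of 9022 genes were. Of 13 macrophage markers tested 1 was called higher and 0 lower, with sums of 2.48% to 2.71% in IL10R against 2.05% to 3.36% in CXhet. Monocyte markers were higher for 4 of 8 tested, with sums of 0.0773% to 0.246% in IL10R against 0.0359% to 0.0554% in CXhet. Hp, which encodes haptoglobin, is on that monocyte list, was among those 4 and enters the sums. Of 12 neutrophil markers 6 were listed, with sums of 0.0203% to 0.0291% in IL10R against 0.00591% to 0.00946% in CXhet, and 2 of the 3 tested were called higher. The part of either list in the members' change was not tested. Cd93 passed neither in edgeR on the recovered reads (adjusted p = 0.0529) nor with libraries scaled to the same sum of macrophage markers (adjusted p = 0.0760), and leaving out 1 library left 6 to 9 members called, 8 without the library labelled IL10R 2.

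**Figure D1:**
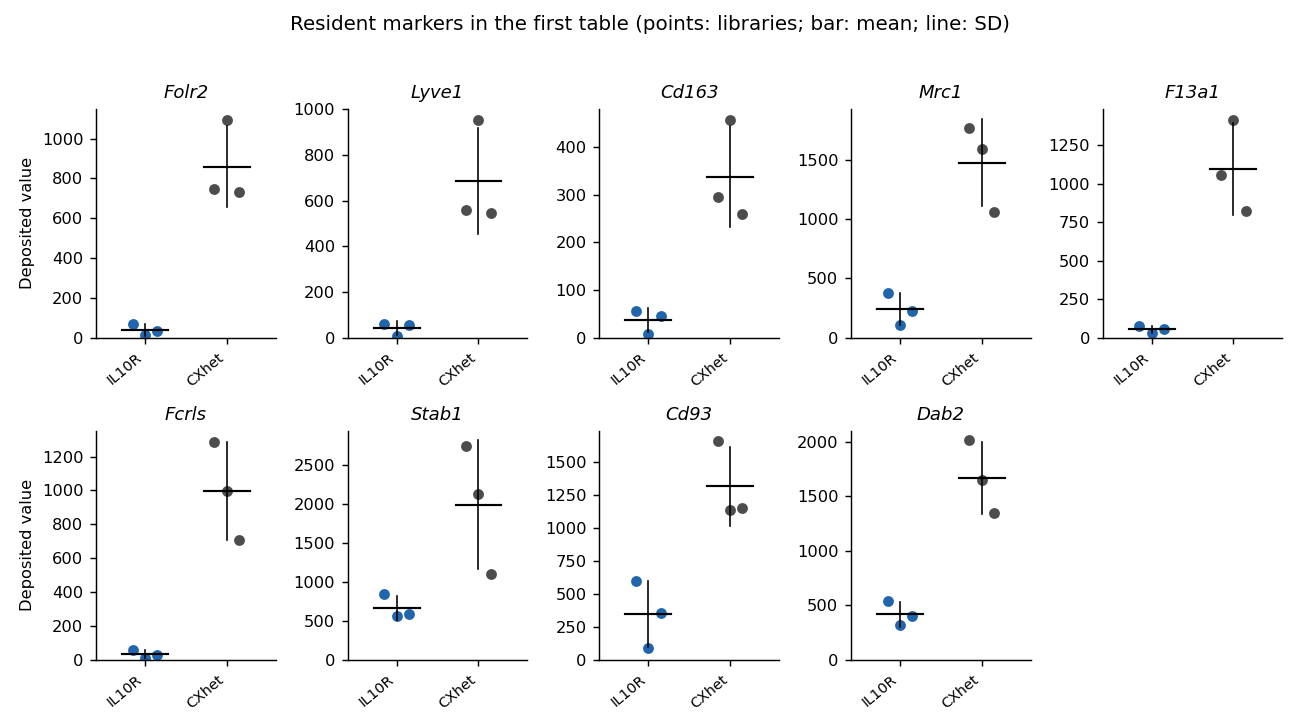
Deposited values (y axes, each from 0) of the 9 genes in the first table, IL10R left and CXhet right, with 1 point per library, a bar at the mean and a line of 1 SD each way. Every IL10R point lies under every CXhet point, with Fcrls at 11.7 to 59.5 in IL10R against 706 to 1287 in CXhet.

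In the rescue table, 7 of the 9 genes were lower in IL10R than in CX libraries, where 6.03% of 6612 tested genes were called lower and the median change was -1.84 over the members and 0.0109 over all genes. Fcrls had 3.90, 45.6, 50.7, 38.0 and 113 in IL10R libraries against 396 and 440 in CX libraries, a fall of -3.58 in log2 units (SE 0.74, limma adjusted p = 0.00803). Mrc1 had 84.5, 104, 196, 142 and 254 in IL10R against 839 and 631 in CX libraries, a change of -2.33 (SE 0.34, adjusted p = 0.00143). Folr2 had 3.90, 14.5, 43.9, 32.7 and 74.0 in IL10R against 146 and 131 in CX libraries, a change of -2.51 (SE 0.75, adjusted p = 0.0438). Its IL10R mean, like that of Cd163, lay under the filter on low values. The tests of both, the count of 7 and the members' median change are therefore a description. With no filter Folr2 was not called (limma adjusted p = 0.0579), which left 6 members called lower where 4.49% of genes were. None of these values overlapped between the groups, as for 18.3% of tested genes in this direction, and the library IL10R 27 held only 3 reads each of Folr2 and Fcrls. F13a1, Stab1, Dab2 and Cd93 were also called lower without overlap, by -2.17 (SE 0.60, adjusted p = 0.0300), -1.84 (SE 0.34, adjusted p = 0.00397), -1.84 (SE 0.35, adjusted p = 0.00422) and -1.77 (SE 0.33, adjusted p = 0.00420).

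Lyve1 and Cd163 were the exceptions. Lyve1 had 24.7, 31.1, 56.2, 38.7 and 74.8 in IL10R against 78.7 and 58.6 in CX libraries, and Cd163 had 13, 19.7, 41.8, 44.0 and 65.2 in IL10R against 54.9 and 72.9 in CX libraries. For both genes the highest IL10R library, number 68, lay between the CX libraries. Their changes of -0.69 (SE 0.44, limma adjusted p = 0.345) and -0.98 (SE 0.46, adjusted p = 0.193) did not pass, which does not show that the groups were alike. The first and rescue tables were normalized separately, so their levels are not set against each other.

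Macrophage markers fell with the members here: 9 of 13 were called lower, with sums of 0.917% to 1.24% in IL10R against 2.02% to 2.03% in CX, and their part in the members' change was not tested. With libraries scaled to the same macrophage marker sum, 5 members (Fcrls, Mrc1, Stab1, Dab2 and Cd93) stayed called lower, while the median of all genes moved to 0.995 and the share called higher from 3.87% to 78.6%. With only 2 CX libraries the count rests on both: it was 0 without CX 1 and 1 without CX 3, and 4 when only these 2 groups were fitted.

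IL10R_P19 macrophages, set against IL10R macrophages, ask how far the members differ once p19 is lost as well. Mrc1, Stab1, Cd93 and Dab2 rose and none fell, where 1.92% of tested genes were called higher and the median change was 1.40 over the 9 members and -0.00344 over all genes. Mrc1 had 442, 443, 483 and 463 in IL10R_P19 libraries against 84.5, 104, 196, 142 and 254 in IL10R libraries. Mrc1 thus lay in a narrow band in IL10R_P19, entirely above IL10R as only Fcrls among the other members and 4.07% of tested genes were, a change of 1.66 (SE 0.28, limma adjusted p = 0.00668). Dab2 had 248, 384, 426 and 418 in IL10R_P19 against 100.1, 84.0, 176, 113 and 263 in IL10R, overlapping in 1 library of each group, a change of 1.42 (SE 0.28, adjusted p = 0.0129). Cd93 and Stab1 changed by 1.19 (SE 0.27, adjusted p = 0.0226) and 1.06 (SE 0.27, adjusted p = 0.0481), also with overlap.

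Fcrls had 122, 153, 155 and 159 in IL10R_P19 against 3.90 to 113 in IL10R libraries, above them throughout, but its change of 2.08 (SE 0.60, limma adjusted p = 0.0794) did not pass. Folr2, F13a1 and Cd163 changed by 1.76, 1.40 and 1.09 without passing (adjusted p = 0.137, 0.139 and 0.136). The IL10R means of Folr2 and Cd163, 33.8 and 36.7, lay under the filter of 40.4, which both passed through other groups. Their tests, the members' median change and the count without IL10R 68 given below are therefore a description. Lyve1 was 35.7 to 74.2 in IL10R_P19 against 24.7 to 74.8 in IL10R, a change of 0.39 (SE 0.36, adjusted p = 0.636). Macrophage markers were higher for 5 of 13, with sums of 1.08% to 1.73% in IL10R_P19 against 0.917% to 1.24% in IL10R. Scaled to those sums the same 4 members stayed called while the median of all genes moved to -0.472, and the share called lower was 31.8% against 0.514% before. The count was 8 without the library IL10R 68, 2 without IL10R 32 or 67, 1 without any 1 of the libraries IL10R_P19_105, IL10R_P19_106 and IL10R_P19_107, and 2 (Mrc1 and Dab2) when only these 2 groups were fitted.

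Set against CX, the IL10R_P19 libraries were lower throughout for 7 of 9 members, all but Lyve1 and Cd163, where 11.8% of tested genes had all IL10R_P19 libraries under both CX libraries. None of the 9 was called by limma, only Stab1 had an unadjusted p under 0.05, and edgeR called none either. Fcrls showed the widest gap, 122 to 159 in IL10R_P19 against 396 and 440 in CX, a change of -1.50 (SE 0.77, limma adjusted p = 0.893). It was called in the fit of these 2 groups alone (adjusted p = 0.00360). Only 2 of 6612 genes (0.0302%) were called in this comparison, 333 had an unadjusted p under 0.05, and edgeR called 4.

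Under antibiotics all 9 genes were far higher, by 6.89-fold to 22.9-fold in IL10R_abx over IL10R libraries, with no overlap for any member, where 22.7% of tested genes lay entirely above. Folr2 had 681, 406, 780 and 443 in IL10R_abx libraries against 3.90 to 74.0 in IL10R libraries, up by 4.51 in log2 units (SE 0.60, limma adjusted p = 7.46e-06). Cd163 had 662, 457, 632 and 651 in IL10R_abx against 13 to 65.2 in IL10R, a change of 4.19 (SE 0.37, adjusted p = 6.82e-08). Lyve1 had 512, 386, 1050 and 468 in IL10R_abx against 24.7 to 74.8 in IL10R, a change of 3.71 (SE 0.36, adjusted p = 1.53e-07). The lowest IL10R_abx library stood far above the highest IL10R library for each of these 3 receptors. Folr2 and Cd163 had IL10R means of 33.8 and 36.7, under the filter of 40.4, and passed it through the other groups. Their adjusted p, the count of 9 called and the members' median change are therefore a description. With no filter all 9 stayed called higher. The share of all genes called in that fit is not given here, and in the filtered fit 30.6% were called higher. Nothing about the members is read from either count. F13a1 changed by 4.37 (SE 0.48), Fcrls by 3.71 (SE 0.60), Stab1 by 3.22 (SE 0.27), Mrc1 by 3.20 (SE 0.28), Dab2 by 3.13 (SE 0.28) and Cd93 by 2.78 (SE 0.27).

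Most of the genes tested were called in this comparison, 30.6% higher and 27.3% lower. The members' median change was 3.71 against 0.0270 over all tested genes. All 20 epithelial markers were lower, at 0.354% to 0.542% of values in IL10R_abx against 1.92% to 2.43% in IL10R, and all 13 macrophage markers were higher, at 2.33% to 3.04% against 0.917% to 1.24%. Their part in the members' rise was not tested. Scaled to the same macrophage marker sum, all 9 members stayed called higher, by 1.23 (Cd93) to 2.99 (Folr2), while the median of all genes moved to -1.57 and 1.98% were called higher and 88.0% lower.

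The same direction was measured in the littermate_abx libraries against CX: 8 of 9 members were called higher, all but Fcrls, where 16.5% of tested genes were, and the median change was 1.88 over the members and 0.0423 over all genes. Cd163 had 690, 473 and 1225 in littermate_abx libraries against 54.9 and 72.9 in CX libraries, 3.52 higher in log2 units (SE 0.51, limma adjusted p = 6.95e-05). Lyve1 had 597, 539 and 1417 in littermate_abx against 78.7 and 58.6 in CX, a change of 3.48 (SE 0.48, adjusted p = 5.22e-05). Both had the lowest littermate_abx library far above the CX libraries, and all 9 members lay above CX in every littermate_abx library, as 33.1% of tested genes did. Smaller changes were those of F13a1 at 2.51 (SE 0.65), Folr2 at 2.39 (SE 0.82), Stab1 at 1.88 (SE 0.37), Dab2 at 1.48 (SE 0.38), Mrc1 at 1.30 (SE 0.38) and Cd93 at 1.08 (SE 0.36). Fcrls had 933, 819 and 1086 in littermate_abx against 396 and 440 in CX, and its change of 1.17 (SE 0.81, adjusted p = 0.294) missed the threshold, though it passed when only these 2 groups were fitted (adjusted p = 4.35e-04). Antibiotics and the littermate genotype differ together here and cannot be told apart.

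Epithelial markers were lower for 19 of 20, at 0.303% to 0.459% in littermate_abx against 1.86% to 2.06% in CX, and macrophage markers higher for 6 of 13, at 2.70% to 2.98% against 2.02% to 2.03%, and their part was not tested. Scaled to those sums 5 members stayed called (Lyve1, Cd163, Stab1, F13a1 and Dab2), with 2.72% of genes called higher and 40.4% lower, against 16.5% and 17.5% before. Without CX 3 the count was 5.

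Between the antibiotic groups, IL10R_abx against littermate_abx, no member was called by limma, where 0.0302% of genes were, or by edgeR, and none had an unadjusted p under 0.05. The changes ran from -1.04 (Fcrls, SE 0.68, limma adjusted p = 0.471) to -0.06 (Cd93, SE 0.30, adjusted p = 0.934), all 9 below 0. Fcrls was the only member without overlap, seen in this direction for 3.04% of tested genes, with 418, 265, 573 and 680 in IL10R_abx against 933, 819 and 1086 in littermate_abx libraries. Of all genes 2 were called here, 385 without the library IL10R_abx_497, and 997 had an unadjusted p under 0.05, and Il10ra itself was lower by -4.86 (SE 0.57, adjusted p = 2.16e-04).

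Whether the difference between deficient and control libraries was smaller under antibiotics was tested as the difference of the 2 effects, IL10R minus CX less IL10R_abx minus littermate_abx. The controls are CX without antibiotics and littermates with them, so antibiotics and the kind of control cannot be told apart in this test. The difference of effects was below 0 for all 9 members, from -2.54 (Fcrls, SE 1.01) to -0.23 (Lyve1, SE 0.60), and none passed. Folr2 and Cd163 had IL10R means under the filter on low values and passed it through other groups. Their tests and the counts over all 9 members are therefore a description. The lowest limma adjusted p was 0.102 (Mrc1, difference -1.90, SE 0.47, unadjusted p = 7.28e-04). Of all genes 7 were called (0.106%), all lower. At an unadjusted p under 0.05, 6 members and 7.35% of all tested genes were lower. edgeR called no member. Leaving out the library IL10R 68 gave 3 called members, and scaled to macrophage markers Lyve1 and Cd163 lay above 0 (0.68 and 0.24, not called).

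**Figure D2:**
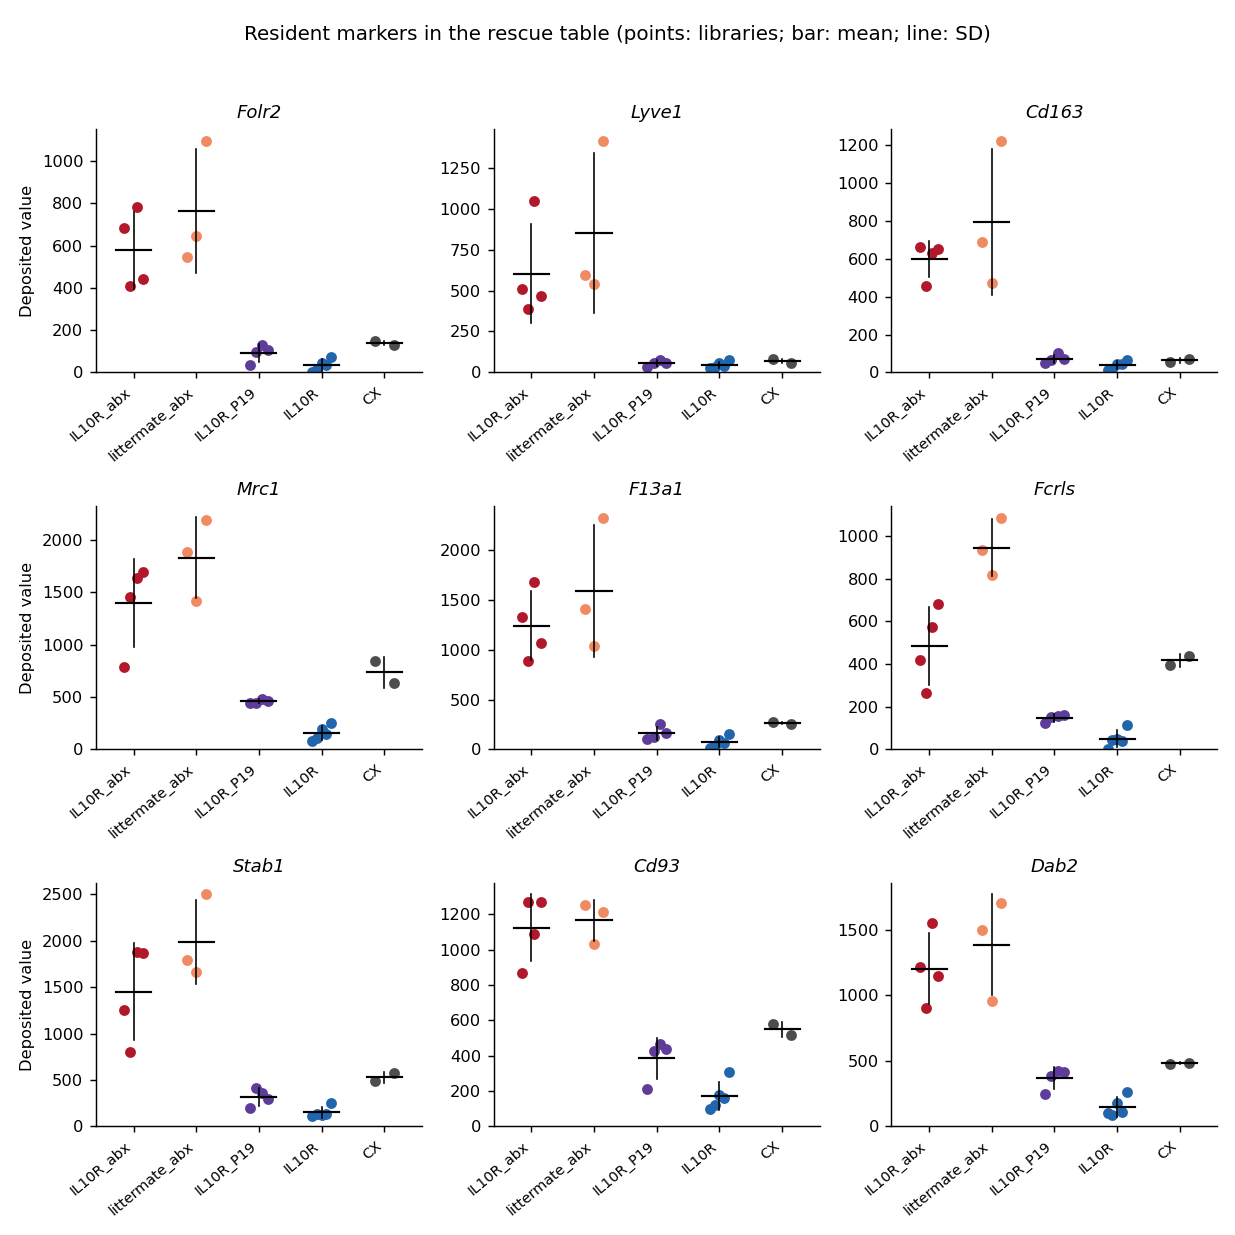
Deposited values (y axes, each from 0) of the 9 genes in the rescue table by group, with 1 point per library, a bar at the mean and a line of 1 SD each way. For Lyve1 and Cd163 the antibiotic groups stand at 386 or more and the other groups at 101 or less, and for all 9 genes the means of IL10R_P19 and CX lie between those of IL10R and the antibiotic groups.

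Across the rescue table the mean log2 level of 8 members had the same order, IL10R lowest, then IL10R_P19, CX, IL10R_abx and littermate_abx. Cd163 differed only in that CX came under IL10R_P19. Neighbours in that order often did not differ beyond their spread. In the fit of all groups IL10R_P19 and CX were not told apart for any member, nor were IL10R_abx and littermate_abx. Fcrls was called lower in IL10R_P19 than in CX when only these 2 groups were fitted. The step up from IL10R to IL10R_P19 was called for Mrc1, Stab1, Cd93 and Dab2, and the step from CX to IL10R_abx for Lyve1, F13a1, Stab1, Cd93 and Dab2. For Cd163 the step from IL10R_P19 to IL10R_abx was called, at 3.10 (SE 0.39, limma adjusted p = 7.84e-06). Macrophage marker sums also differed across these groups. They were 0.917% to 1.24% in IL10R, 1.08% to 1.73% in IL10R_P19 and 2.02% to 2.03% in CX. In IL10R_abx they were 2.33% to 3.04% and in littermate_abx 2.70% to 2.98%. Their part in the members' order was not tested, and how many of all genes keep that order was not counted.

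Set against CX, IL10R_abx had 6 members called higher, where 16.8% of tested genes were. The IL10R_abx libraries lay above both CX libraries for 7 members, as for 23.8% of tested genes. Cd163 and Lyve1 were 9.26-fold and 8.11-fold higher, at 457 to 662 and 386 to 1050 in IL10R_abx against 54.9 to 72.9 and 58.6 to 78.7 in CX. Fcrls was 265 to 680 in IL10R_abx against 396 to 440 in CX, around the CX libraries, with a change of 0.13 (SE 0.77, limma adjusted p = 0.918). Folr2, at 406 to 780 against 131 to 146, missed the threshold (adjusted p = 0.0603) but passed in edgeR (adjusted p = 0.0247). Mrc1 was 781 to 1696 in IL10R_abx against 631 to 839 in CX, with overlap (adjusted p = 0.0707). The count was 2 without CX 1, 3 without CX 3 and 3 when scaled to macrophage markers, where 2.42% of all genes were called higher and 37.4% lower.

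Against IL10R_P19, all 9 members were called higher in IL10R_abx, where 25.8% of tested genes were, by 1.54 (Mrc1, SE 0.29) to 3.32 (Lyve1, SE 0.38) on the log2 scale. All 9 were also called higher in littermate_abx than in IL10R_P19, where 26.4% were, by 1.65 (Cd93, SE 0.30) to 3.78 (Lyve1, SE 0.41), and in littermate_abx than in IL10R, where 30.9% were, by 2.85 (Cd93, SE 0.29) to 4.90 (Folr2, SE 0.65). Lyve1, which did not differ detectably between IL10R_P19 and IL10R, thus showed the largest differences of the 9 between the antibiotic groups and IL10R_P19. Scaled to macrophage markers, 6 members stayed called higher in IL10R_abx against IL10R_P19, where 1.72% of all genes were called higher and 79.0% lower. So scaled, 7 stayed called in littermate_abx against IL10R_P19 (2.27% of all genes higher and 77.5% lower). In littermate_abx against IL10R 9 stayed called (2.69% higher and 86.3% lower). In the fit without scaling, Folr2 and Cd163 had IL10R means under the filter on low values and passed it through other groups. Their tests and the count of 9 against IL10R are therefore a description. With no filter all 9 stayed called there, in a fit whose share of all genes is not given here, so nothing is read from that count.

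**Figure D3:**
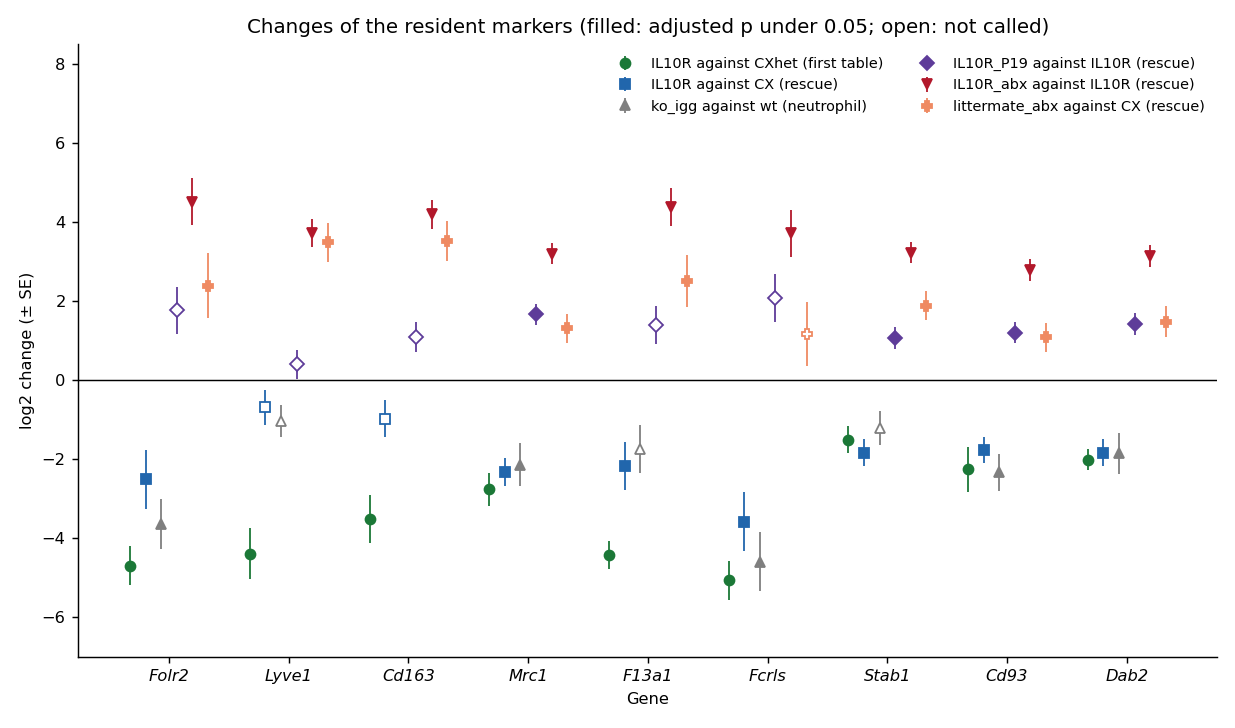
Log2 change (y axis, with lines of 1 SE) of each gene in 6 comparisons of the 3 tables, filled where the adjusted p is under 0.05 and open where it is not; for Folr2, Lyve1 and F13a1 in the neutrophil table the fit without a filter is shown. The comparisons of IL10R or ko_igg with controls lie at or under -0.69 and those with antibiotics at or above 1.08.

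In the bone marrow chimeras most members were again lower in deficient than in wt macrophages, without overlap for 6 of 8 in ko_igg against wt, where 11.5% of tested genes lay so. Of 8 listed members 5 passed the filter on low values, and Fcrls did so through the wt libraries alone, so the counts are a description and the values of Fcrls against wt come from the fit with no filter. In ko_igg against wt, Cd93, Mrc1 and Dab2 were called lower among the other 4, where 3.46% of 6594 tested genes were. With no filter on low values Fcrls and Folr2 were called lower as well, 5 of 8 members, where 4.00% of 8793 genes were. Fcrls had 10.5, 7.88 and 2.28 in ko_igg libraries against 351, 98.1, 195 and 112 in wt libraries, or -4.59 in log2 units (SE 0.63, limma adjusted p = 0.00212), with only 2 reads in ko_igg 18. Mrc1 had 96.0, 76.4 and 42.1 in ko_igg against 723, 208, 257 and 213 in wt, a change of -2.14 (SE 0.55, adjusted p = 0.0372). Neither gene overlapped between the groups, and the library wt 1 stood above the other wt libraries.

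Cd93 was 77.9 to 128 in ko_igg against 322 to 1063 in wt (change -2.34, SE 0.47, limma adjusted p = 0.0127), and Dab2 was 65.5 to 194 against 279 to 845 (change -1.85, SE 0.52, adjusted p = 0.0493). Stab1 was 165 to 220 in ko_igg against 246 to 1009 in wt, lower in all libraries, but its change of -1.21 (SE 0.43, adjusted p = 0.0994) missed the threshold. With low genes kept in, Folr2 had 10.5, 7.39 and 10.2 in ko_igg against 304, 67.8, 135 and 93.3 in wt (change -3.64, SE 0.62, adjusted p = 0.00531). Lyve1 was 20.2 to 41.0 in ko_igg against 38.5 to 116 in wt and F13a1 12.5 to 41.1 against 38.5 to 158, both with overlap and not called there (adjusted p = 0.139 and 0.0961).

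Markers of other cell types also differed between ko_igg and wt, some higher and some lower. Monocyte markers, 9 of 12 listed with Hp among them, summed to 0.0595% to 0.147% in ko_igg against 0.0433% to 0.0473% in wt. Of 7 tested 3 were called higher. Neutrophil markers, 6 of 12 listed, summed to 0.00960% to 0.0404% in ko_igg against 0.00464% to 0.00914% in wt, with 1 of 3 called higher. Only 2 of 13 T and NK cell markers were listed, at 0.00472% to 0.00515% in ko_igg against 0.000535% to 0.00116% in wt. Dendritic cell markers, 6 of 14 listed, were lower at 0.0447% to 0.0530% in ko_igg against 0.0656% to 0.130% in wt. None of these sums overlapped between ko_igg and wt, and their part in the members' change was not tested. In ko_ly6g, monocyte markers were 0.0377% to 0.108% and neutrophil markers 0.00676% to 0.0516%, both overlapping wt.

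The wt libraries differed among themselves: wt 1 was the highest for all 8 members, at 3.28% macrophage markers and 1.18% epithelial markers, where the other 3 stood at 1.18% to 1.57% and 2.61% to 2.80%. Of the 4 members called in the filtered fit, Fcrls included, leaving out wt 1, wt 3 or wt 4 left 2, and leaving out ko_igg 16 left 1. Scaled to the same macrophage marker sum only Cd93 stayed called (adjusted p = 0.0411) of 4 members that then passed the filter, the median of all genes moved to 0.670, and 1.20% of genes were called higher and 0.228% lower, against 5.73% and 3.46% before. edgeR on the 8 libraries with recovered reads, without ko_igg 16 and wt 3, called none of them.

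No difference of the members between the antibodies was detected. In ko_ly6g against ko_igg no member was called, none had an unadjusted p under 0.05, and 0% of all 6594 genes were called by limma, where 127 had an unadjusted p under 0.05, or by edgeR. Fcrls had 3.58, 17.2 and 13.7 in ko_ly6g libraries against 10.5, 7.88 and 2.28 in ko_igg libraries, and Mrc1 had 23.3, 97.0 and 73.2 against 96.0, 76.4 and 42.1. These ranges overlapped, and so did those of the other 6 members. Fcrls lay far under the filter in both groups and passed it through wt alone, so its test says nothing about the antibody. The changes of the other 4 tested ran from -0.29 (Mrc1, SE 0.59) to 0.23 (Cd93, SE 0.50), which does not show that the groups were alike.

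Against wt, ko_ly6g libraries were lower throughout for 7 of 8 members, all but Lyve1, where 7.22% of tested genes were. Cd93 was called lower by -2.10 (SE 0.47, limma adjusted p = 0.0343), where 1.35% of genes were. Mrc1 and Fcrls had ko_ly6g means under the filter. With no filter both were called lower, by -2.43 (SE 0.54, limma adjusted p = 0.0323) and -3.96 (SE 0.63, adjusted p = 0.00772), as were Cd93, Folr2 at -3.37 (SE 0.62) and F13a1 at -2.65 (SE 0.61), where 1.66% of genes were. The filtered fit called 3, and that count was 0 without wt 3 or without wt 4, 1 without ko_ly6g 5 or without ko_ly6g 7, 1 when only these 2 groups were fitted, 1 in edgeR on 8 libraries and 0 when scaled to macrophage markers. Both chimera comparisons with wt use the same wt libraries.

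**Figure D4:**
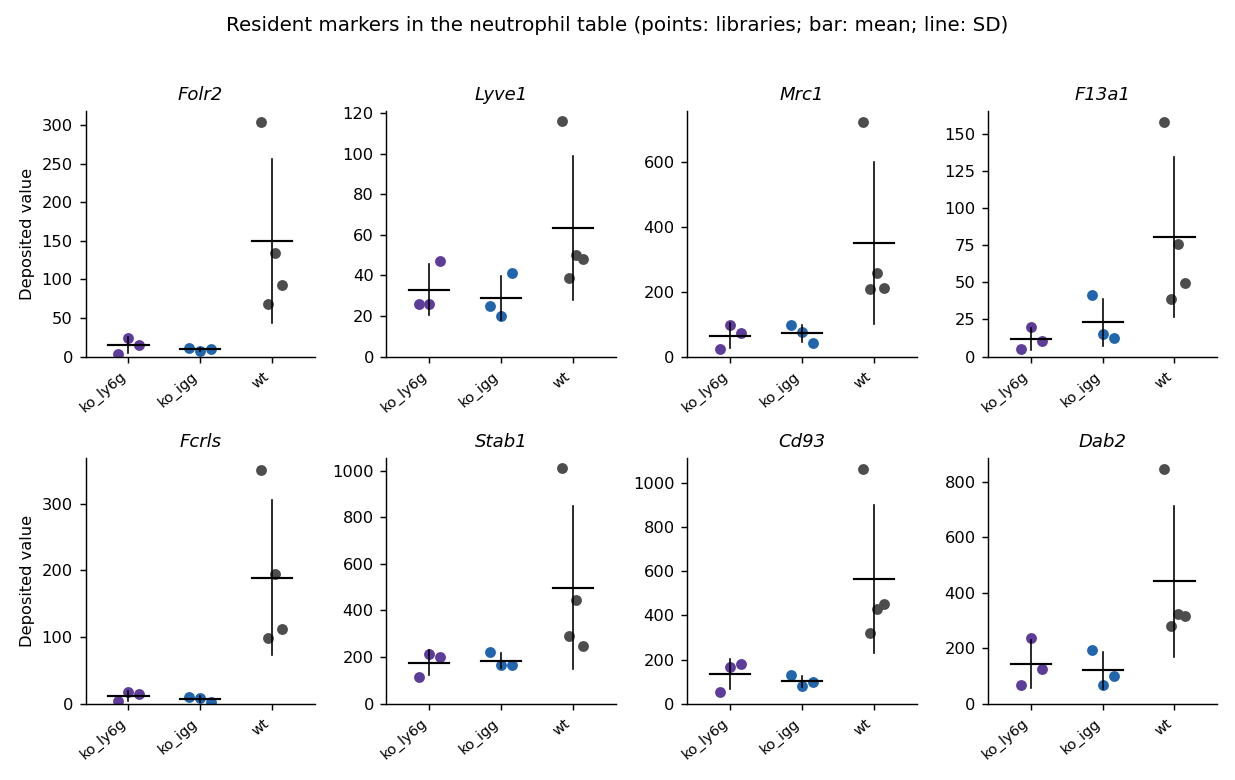
Deposited values (y axes, each from 0) of the 8 listed genes in the neutrophil table by group, with 1 point per library, a bar at the mean and a line of 1 SD each way. The library wt 1 is the highest point for all 8 genes, with Mrc1 at 723 where the other wt libraries reach 257.

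The libraries of a group tended to keep their order across members. The library IL10R 68 of the rescue table was the highest of 5 for all 9 genes and IL10R 27 the lowest for 8, although their macrophage markers were alike at 1.21% and 1.24%. IL10R_P19 100 was the lowest of 4 for all 9 genes, at 1.08% macrophage markers where the other 3 stood at 1.54% to 1.73%. In the first table IL10R 2 was the lowest of 3 for all 9 genes, at 2.66% against 2.48% and 2.71%. Among the chimeras ko_ly6g 5 was the lowest of 3 for all 8 genes, at 0.598% where the others stood at 1.34% and 1.42%. After division by the macrophage marker sum IL10R 68 was still the highest and IL10R 27 the lowest for all 9 genes, and IL10R 2 of the first table still the lowest for all 9. Then wt 1 was the highest for 1 of 8 genes, ko_ly6g 5 the lowest for 5 of 8 and IL10R_P19 100 the lowest for 4 of 9.

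**Figure D5:**
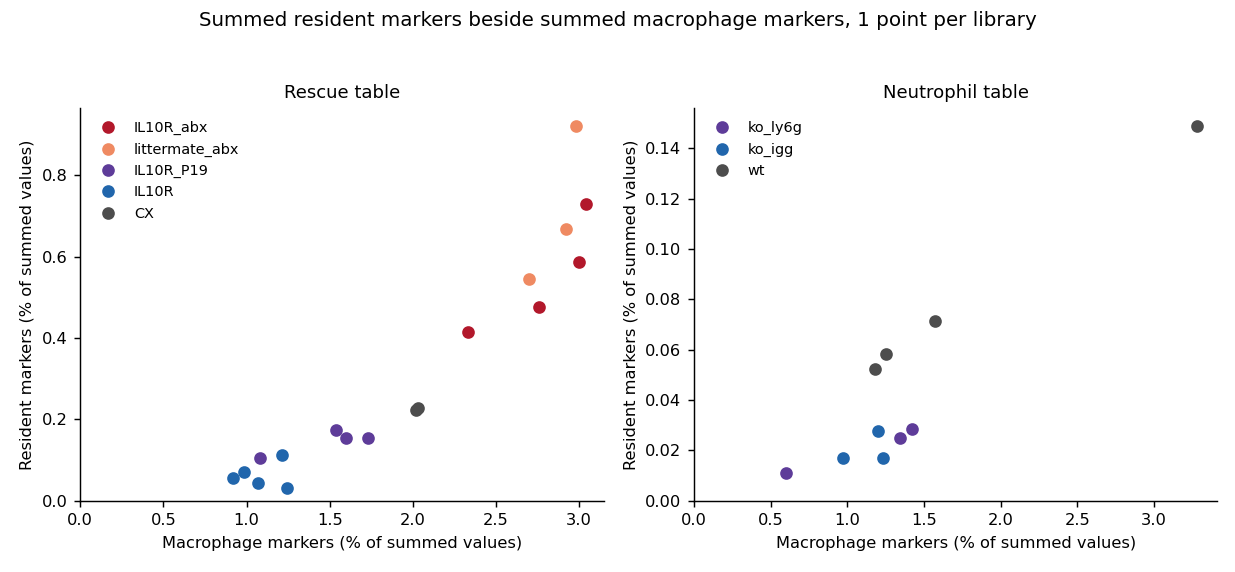
Summed values of the resident markers (y axis, % of all values) beside those of 13 macrophage markers (x axis, % of all values) in the rescue (left) and neutrophil (right) tables, 1 point per library. In the rescue table the antibiotic libraries reach 0.414% to 0.920% resident markers at 2.33% to 3.04% macrophage markers, while IL10R libraries spread from 0.0323% to 0.113% at 0.917% to 1.24%.

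Other genes of the same pathways moved less uniformly. Of 30 further resident-macrophage markers tested in the first table, 15 were called lower and 0 higher in IL10R than in CXhet, among them Ltc4s, a leukotriene synthase, by -3.60 (SE 0.27), Ednrb, an endothelin receptor, by -4.74 (SE 0.46) and Npl, a sialic acid lyase, by -2.88 (SE 0.29). In the rescue samples 20 of 32 were lower and 0 higher in IL10R than in CX, with P2ry12, a purine receptor, at -1.75 (SE 0.31) and Ptgs1, a prostaglandin synthase, at -1.81 (SE 0.32); scaled to macrophage markers this was 6 lower and 1 higher of 30, where 0.499% of all genes were lower and 78.6% higher. In IL10R_P19 against IL10R 12 were higher and 0 lower, among them the growth factor Igf1 at 2.14 (SE 0.35) and Clec10a at 1.33 (SE 0.23). Clec10a, a galactose-type lectin, is also on the list of dendritic cell markers. Scaled to macrophage markers 9 were higher and 1 lower of 30, where 0.620% of all genes were higher and 31.8% lower. In IL10R_abx against IL10R 30 of 32 were higher and 0 lower, which was 14 higher and 3 lower of 30 when scaled to macrophage markers, where 1.98% of all genes were higher and 88.0% lower. In ko_igg against wt 11 of 23 were lower and 0 higher. So scaled this was 2 lower and 0 higher of 21, where 0.228% of all genes were lower and 1.20% higher. Unscaled, 4.12% of all tested genes were lower in IL10R against CXhet, 6.03% in IL10R against CX and 3.46% in ko_igg against wt. Those higher were 1.92% in IL10R_P19 against IL10R and 30.6% in IL10R_abx against IL10R.

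Among other C-type lectins the first table had 4 higher and 4 lower of 15 in IL10R against CXhet: Clec4e, a receptor for mycobacterial glycolipid, at 4.91 (SE 0.38), Clec12a at 3.14 (SE 0.33) and the beta-glucan receptor Clec7a at 1.31 (SE 0.18) were higher. Of the genes listed as other scavenger receptors Cd36, which takes up oxidized lipid, fell by -3.03 (SE 0.42). Cd209f, a C-type lectin by family, fell by -4.24 (SE 0.72), while Marco rose by 4.92 (SE 1.01). In that list 2 were lower and 1 higher of 10. Hp, which encodes haptoglobin, the plasma protein whose complex with haemoglobin Cd163 takes up, was higher by 6.46 (SE 0.96), the only 1 called of 16 haem and iron genes. Of all tested genes 4.57% were called higher and 4.12% lower in this comparison. Clathrin and endosome genes had 1 higher and 4 lower of 29, with Snx2 at -1.76 (SE 0.26), Eps15 at -1.60 (SE 0.27) and Itsn1 at -1.99 (SE 0.40). Coagulation and transglutaminase genes had 4 higher and 3 lower of 14, with Tgm2, another transglutaminase, at 2.51 (SE 0.21), Procr at 3.65 (SE 0.35) and F10 at 5.58 (SE 0.57) higher. Of folate genes 1 of 8 was called, Mthfd2 at 1.24 (SE 0.26), of other hyaluronan genes 0 of 6 by limma at an adjusted p under 0.05, and of IL-10 and glucocorticoid targets 5 were higher and 1 lower of 22, among them Il1rn at 1.54 (SE 0.23), Tnip3 at 1.15 (SE 0.21) and Arid5a at -1.04 (SE 0.20).

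In the rescue table, IL10R against CX had 2 lower and 1 higher of 9 other scavenger receptors, 2 lower of 13 lectins, 4 lower of 30 clathrin genes, led by Hip1 at -1.54 (SE 0.23), 2 lower of 16 haem and iron genes, 1 higher of 8 folate genes, 1 lower of 6 hyaluronan genes, namely Cd44 at -0.77 (SE 0.22), 1 higher and 1 lower of 12 coagulation genes, and 1 higher and 2 lower of 21 IL-10 and glucocorticoid targets. In IL10R_abx against IL10R, genes higher and lower numbered 7 and 1 of 9 other scavenger receptors, 8 and 0 of 13 lectins, 17 and 3 of 30 clathrin genes, 11 and 3 of 16 haem and iron genes, 1 and 4 of 8 folate genes, 4 and 1 of 6 hyaluronan genes, 4 and 4 of 12 coagulation genes, and 14 and 2 of 21 IL-10 and glucocorticoid targets. Of all tested genes 30.6% were higher and 27.3% lower here, and 3.87% were higher and 6.03% lower in IL10R against CX. In IL10R_abx against IL10R, Hip1 rose by 2.54 (SE 0.18), Hmox1, which breaks down haem, by 2.75 (SE 0.28) and Cd44, a hyaluronan receptor, by 1.71 (SE 0.17). Scaling to macrophage markers raised the share of all genes called lower in IL10R_abx against IL10R from 27.3% to 88.0%. So scaled, the clathrin genes had 2 higher and 22 lower of 30 and the haem and iron genes 1 higher and 9 lower of 16. Nothing is read from these counts.

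The genes whose pattern over libraries was most like that of the members were sought among 5447 genes tested in all 3 tables, by Pearson's r with the mean of the scaled members over the 6, 18 and 10 libraries of each table. The libraries fall into groups, so r mostly reflects the differences between groups and is given without a p. Pf4, a platelet-type chemokine, came first with r of 0.996, 0.981 and 0.983, followed by Fcgrt, the neonatal Fc receptor, at a lowest r of 0.966, Timp2, a metalloproteinase inhibitor, at 0.963, Rab31, an endosomal GTPase, at 0.961, Arhgap22 at 0.952 and Stk17b at 0.951. Pf4 was 440 to 1025 in IL10R against 4388 to 6457 in CXhet. In the rescue table Pf4 was 2686 to 4293 in IL10R_abx and 512 to 1272 in IL10R_P19, against 96.2 to 684 in IL10R. The single gene most like the members within a table was Etv5 in the first (0.999), Trf, which encodes transferrin, in the rescue (0.988) and Cd300a in the neutrophil table (0.988), and Cd300a had an r of -0.592 in the first table.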

How the data were processed

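Polyadenylated RNA was amplified by in vitro transcription, per the labels' protocols, and the submitters' processing notes name bcl2fastq, HISAT 0.1.6, HOMER and the build mm9; counting by strand is not given in the sources used here. The deposited signal values behave, judging from the values, as whole read numbers multiplied by a constant of each library: 100% of values were whole within 0.01 read in 32 of 34 libraries, all but ko_igg 16 and wt 3. The design allowed for normalized values, so limma was the main test. Rows with no gene name (15399 and 15605) were left out. Replicate libraries all differed beyond counting noise (smallest chi-square per degree of freedom 3.58).

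Within each table all groups entered 1 limma 3.58.1 fit (R 4.3.3, trend, robust) on log2(value + pseudocount of 1.31, 0.997 or 0.982), after removing genes with a mean in the lower quartile (up to 53.2, 40.4 and 68.0), leaving 6766, 6612 and 6594. A gene was called at an adjusted p (Benjamini-Hochberg, over all tested genes) under 0.05, and each such p comes from limma unless edgeR is named. The fit was tested on simulated data. Alternatives were other pseudocounts, no filter, rescaled libraries, fits of 2 groups, a replicate block, each library left out, and edgeR 4.0.16 (quasi-likelihood, TMM) on the recovered reads. The scaling to macrophage markers, and edgeR on the 8 recovered neutrophil-table libraries, were chosen after seeing the data.

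The members and all gene lists were chosen with earlier results of these data known. Named besides the members are Il10ra, up to 3 called genes per pathway list and comparison with the smallest adjusted p, the 6 genes with the highest lowest r over the tables and the highest of each table, leaving out predicted and sex-linked genes. Motifs were sought in RefSeq promoters of GRCm38.p6, and the files' own build is mm9. Values of 10 reads or fewer carry the most counting error. Some genes of the pathway lists are counted but their own values are not reported here.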

Additional observations from a re-analysis of the deposited data

Results flagged for a closer look

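In 35 groups of 4 or 5 libraries, 7 values stood apart from the rest of their group by Dixon's test, which chance does in about 1 of 20 groups, and the members share their libraries, so these are not 7 independent events. The library wt 1 stood above the other wt libraries for Lyve1 (116, the next highest 50.2), Mrc1 (723, the next 257) and Dab2 (845, the next 323). It also had the highest macrophage marker share of that table, 3.28%.

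In IL10R_P19 100, Fcrls at 122 (the next lowest 153) and Cd93 at 213 (the next 427) were the low ends of their group, and its macrophage markers were the lowest of the 4 libraries at 1.08%. In IL10R 68 of the rescue table Stab1 was 255, where the next highest IL10R library had 137. Cd163 was 457 in IL10R_abx_161, where the next lowest IL10R_abx library had 632. That library had the lowest macrophage marker share of its group, 2.33%. The part of these shares in the values was not tested.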

How the results depend on the processing

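Of 77 called changes of members none turned round under any alternative, and 32 lost their call under at least 1. Scaled to macrophage markers, called members numbered 1 (ko_igg against wt), 0 (ko_ly6g against wt), 3 (IL10R_abx against CX) and 5 (littermate_abx against CX), and edgeR on 8 libraries called 0 and 1 in the chimera comparisons with wt. Without a filter ko_ly6g against wt had 5 called. Fits of only the 2 groups gave 1 for ko_ly6g against wt, 4 for IL10R against CX, 1 for IL10R_P19 against CX and 2 for IL10R_P19 against IL10R. With 1 library left out the counts were 6 to 9 (IL10R against CXhet), 0 to 7 (IL10R against CX), 1 to 8 (IL10R_P19 against IL10R), 2 to 7 (IL10R_abx against CX), 5 to 7 (littermate_abx against CX), 1 to 3 (ko_igg against wt), 0 to 3 (ko_ly6g against wt) and 0 to 3 (difference of effects). The cause was not tested, beyond the fewer libraries. Where 1 CX library was left, its spread was taken from the other groups.

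With all libraries kept, the calls over all genes ranged from 379 to 876 (main 588) for IL10R against CXhet, with 876 by edgeR, 652 to 5231 (655) for IL10R against CX, 146 to 2142 (127 higher plus 34 lower) for IL10R_P19 against IL10R, with 353 by edgeR, 2 to 6 (2) for IL10R_P19 against CX, 3432 to 5951 (3823) for IL10R_abx against IL10R, 1080 to 2635 (2071) for IL10R_abx against CX, 3403 to 5272 (3408) for littermate_abx against IL10R_P19, 2736 to 5334 (3191) for IL10R_abx against IL10R_P19, 0 to 3000 (7) for the difference of effects, 80 to 817 (606) for ko_igg against wt and 60 to 403 (286) for ko_ly6g against wt. With 1 library left out they were, in the same order, 201 (without CXhet 2) to 592, 20 (without CX 1) to 747, 17 (without IL10R_P19_107) to 380, 0 to 2, 3606 to 3847, 964 (without CX 1) to 2177, 2949 to 3258, 2741 to 3221, 0 to 73, 205 (without ko_igg 14) to 1046 and 103 (without wt 3) to 494, and they were 1325 (without CX 1) to 2072 (2250 with all) for littermate_abx against CX.

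Changes near 0 that were not called turned sign. Scaled to macrophage markers these were Lyve1 in IL10R against CX (0.270), in IL10R_P19 against CX (0.205) and against IL10R (-0.0652) and in the difference of effects (0.683), Cd163 in that difference (0.236), Dab2 in IL10R_P19 against CX (0.0911) and Fcrls in IL10R_abx against CX (-0.454, and -0.00456 with libraries rescaled to the same sum). In ko_ly6g against ko_igg, Dab2 was -0.0531 in edgeR on 8 libraries. With 1 library left out the ranges were -0.629 to 0.0571 (Cd163), -0.148 to 0.0549 (Cd93) and -0.584 to 9.31e-04 (F13a1) in IL10R_abx against littermate_abx, -0.0891 to 0.313 (Cd163) in IL10R_P19 against CX, -0.0633 to 0.389 (Fcrls) in IL10R_abx against CX, -0.667 to 0.0759 (Lyve1) in the difference of effects, and -0.0678 to 0.782 (Cd93), -0.243 to 0.679 (Dab2), -0.695 to 0.313 (Mrc1) and -0.268 to 0.175 (Stab1) in ko_ly6g against ko_igg.

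With a replicate block in the first table, 9 members were called, and 808 genes in all. Same-numbered libraries deviated with r of -0.0581, 0.151 and 0.354, so the numbers were not taken as a pairing.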
